A study of Homo sapiens with 6 samples.

Results

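The MYC, MAX and MXD network is a set of 10 genes for transcription factors of the basic helix-loop-helix leucine zipper class: MYC, MYCL, MYCN, MAX, MXD1, MXD3, MXD4, MXI1, MNT and MGA. They were taken by gene symbol from the 60835 gene names in a table of read counts, and the rule that picks them uses no measured value, though they were chosen with earlier results of these data known. All 10 had a line in the table, 9 passed the low-count filter, and MYCN did not. The RNA came from SW620 cells, a line established from a human colon cancer and grown in high-glucose DMEM with fetal bovine serum. Of the 6 libraries, 3 are labelled shDNM1, for stable knockdown by a short hairpin RNA of DNM1, the gene of the membrane-scission GTPase dynamin 1, with the genotype given as DNM1 Knockdown. The other 3 are labelled shControl and received a control vector, with the genotype given as WT. The stated aim was to find genes whose expression differed after DNM1 knockdown, and the series title places that gene with PI3K/Akt signalling in colorectal cancer.

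MYC, MYCL and MYCN do not bind DNA on their own: each pairs with MAX, and the dimer binds E-boxes, above all the palindrome CACGTG, and raises transcription of genes for ribosome assembly, nucleotide and polyamine synthesis and the cell cycle. The MXD proteins, MXI1 and MNT compete for the same partner and the same E-boxes, and their dimers with MAX recruit the SIN3 and histone deacetylase corepressors. MGA also pairs with MAX, inside a Polycomb complex, PRC1.6, that silences germline genes. In the intestine, MYC is a target of Wnt signalling, and its transcript is high in most colorectal cancers.

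The libraries held 12845339 to 13297842 counts with the shDNM1 label and 12844534 to 13537519 with the shControl label. DNM1, the targeted gene, had 1620, 1227 and 1651 counts in libraries labelled shDNM1 and 1653, 1723 and 1730 in shControl libraries. Its log2 fold change was -0.15 (SE 0.08, 95% interval -0.32 to 0.03) with an adjusted p of 0.189 in edgeR's quasi-likelihood test with Benjamini-Hochberg adjustment, so the target gives no support to the label, and groups are called by their labels throughout. Without shDNM1 replicate 1 the change was -0.20 with an edgeR adjusted p of 0.0399. Yet shDNM1 replicates 1 and 3, at 1620 and 1651 counts, were close to the lowest shControl count of 1653. The fall thus lay mainly in shDNM1 replicate 2, at 1227 counts. CIZ1, which overlaps DNM1 on the opposite strand, fell by 0.84 on the log2 scale (edgeR adjusted p = 4.57e-07). All shDNM1 libraries are labelled batch_B and all shControl libraries batch_A, so batch and group cannot be told apart. No label says that libraries came from separate cultures, so p-values measure the spread between libraries, which may be technical. Between-group correlations of log2 CPM (counts scaled to the library total with edgeR's TMM factors) were 0.982 to 0.983, and those within groups 0.992 to 0.995. Of 8 colonic epithelium markers, 6 had at least 10 counts in every library. KRT20 and LGALS4, markers of differentiated colonic cells, did not, with 5 to 7 and 10 to 16 counts in libraries labelled shDNM1 against 6 to 18 and 6 to 17 in shControl libraries. The summed epithelial markers were 9016 to 10200 CPM in libraries labelled shDNM1 and 7837 to 8509 CPM in shControl libraries. Most of that sum was the keratin gene KRT8, with 84158 to 91744 counts in libraries labelled shDNM1 and 72054 to 82153 in shControl libraries. EPCAM ran the other way, with 4651 to 4959 counts in libraries labelled shDNM1 and 5482 to 5597 in shControl libraries. CDX2, an intestinal transcription factor, had 238 to 282 counts in libraries labelled shDNM1 and 83 to 126 in shControl libraries, and VIL1, the villin gene, overlapped, with 3878 to 4564 counts in libraries labelled shDNM1 and 4459 to 4751 in shControl libraries. The 6 fibroblast markers summed to 42.6 to 57.2 CPM in libraries labelled shDNM1 and 31.3 to 38.7 CPM in shControl libraries, with COL3A1 at 0 in every library. The 6 leukocyte markers summed to 1.37 to 2.23 CPM in libraries labelled shDNM1 and 3.39 to 4.45 CPM in shControl libraries, with CD3E and HBB at 0. The 4 endothelial markers summed to 17.9 to 22.8 CPM in libraries labelled shDNM1 and 16.9 to 20.2 CPM in shControl libraries, with KDR at 0. All 6 libraries are labelled as SW620 cells, and the part of these marker genes in the results was not tested. Fewer cells expressing a gene and less RNA per cell cannot be told apart in bulk RNA.

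MYC, MXD1 and MNT rose in libraries labelled shDNM1, and MXD4, MXI1 and MGA fell. MYCL, MAX and MXD3 did not pass the threshold, an adjusted p of 0.05 in edgeR's quasi-likelihood test over 16744 genes. Thus 6 of the 9 tested members were called, 3 higher and 3 lower, where 31.9% of all tested genes were called, 15.6% higher and 16.2% lower. In 7 of the 9, the CPM values of the groups did not overlap, which held for 44.3% of all tested genes. The median log2 fold change of the 9 members was -0.12, beside -0.01 over all tested genes. With limma on log2(deposited TPM + 1), 1801 genes were called higher and 2846 lower, against 2617 and 2720 with edgeR.

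**Figure D1:**
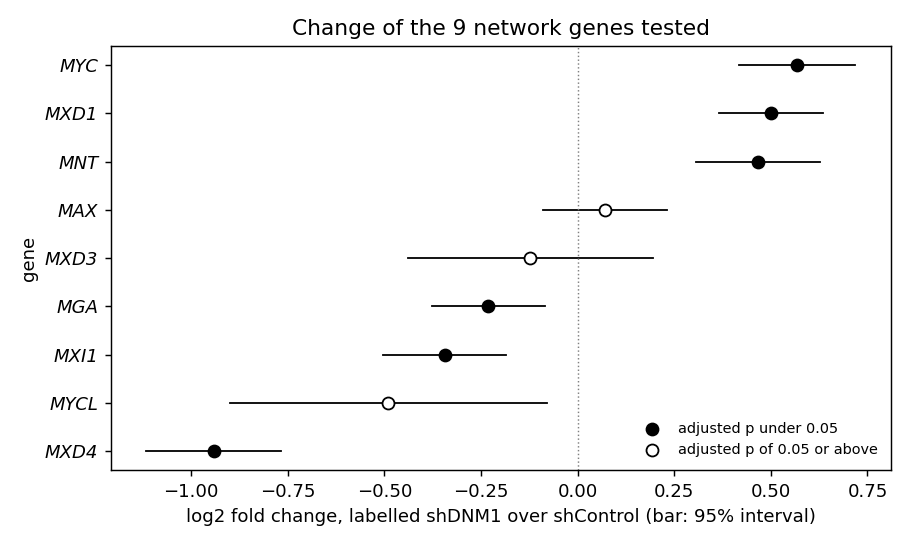
Log2 fold change of the 9 tested members, libraries labelled shDNM1 over shControl, with 95% intervals from edgeR's quasi-likelihood fit on 3 libraries a group. Changes run from 0.57 for MYC to -0.94 for MXD4, and the intervals of MAX and MXD3 include 0.

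MYC, the family member best known as a driver of growth and proliferation, lies on chromosome 8 from 127735434 to 127742951 on the plus strand (GRCh38, as deposited with the counts). Its deposited TPM value, a level per transcript length, was 438, 509 and 499 in libraries labelled shDNM1 and 338, 346 and 332 in shControl libraries. Every library labelled shDNM1 lay above every shControl library, and the shDNM1 libraries were spread more widely. The means were 482 ± 38.3 TPM with the shDNM1 label and 339 ± 6.85 TPM with the shControl label (SD, n = 3 each). The fold change was 1.48 (95% interval 1.34 to 1.64, edgeR adjusted p = 7.91e-06), and 7.61% of all tested genes had a log2 fold change at least as high. By mean TPM value, MYC ranked 213 of 31982 genes above 0 in libraries labelled shDNM1 and 349 of 32534 in shControl libraries. CASC11, an antisense RNA gene that overlaps MYC, had at most 8 counts in any library.

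MYCL, the paralogue first found amplified in lung cancer, lies on chromosome 1 from 39895426 to 39902256 on the minus strand. It had 43, 64 and 65 counts in libraries labelled shDNM1 and 82, 86 and 80 in shControl libraries. All libraries labelled shDNM1 were below all shControl libraries, with shDNM1 replicate 1 the lowest. The log2 fold change was -0.49 (SE 0.19, 95% interval -0.90 to -0.08), with an unadjusted p of 0.0219 and an edgeR adjusted p of 0.0639. It passed the threshold without shDNM1 replicate 2 (edgeR adjusted p = 0.044), with no scaling beyond library size (0.0472) and with the replicate number as a block (0.0434).

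MYCN, the neuroblastoma paralogue on chromosome 2 from 15940550 to 15947007 on the plus strand, had 0, 3 and 4 counts in libraries labelled shDNM1 and 9, 9 and 6 in shControl libraries. The sums were 7 counts with the shDNM1 label and 24 with the shControl label, and the gene was not tested. Its value of 0 in shDNM1 replicate 1 allows up to 3 counts, or 0.234 CPM of that library's total; this limit covers counting error only. Within the MYC family, MYC made up 99.4%, 99.2% and 99.1% of the summed TPM value in libraries labelled shDNM1 and 98.2%, 98.2% and 98.3% in shControl libraries. The groups did not overlap, with a mean difference of 0.98 percentage points and p = 0.1 in an exact two-sided permutation test, the smallest p that 3 against 3 libraries allow.

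MAX, the shared dimer partner, lies on chromosome 14 from 65006174 to 65102695 on the minus strand. Its TPM value was 55.9, 58.3 and 65.0 in libraries labelled shDNM1 and 59.2, 57.0 and 61.4 in shControl libraries. The groups overlapped, and the highest and the lowest library both carried the shDNM1 label. The log2 fold change was 0.07 (95% interval -0.09 to 0.23, edgeR adjusted p = 0.521), an interval of 94.0% to 117% of the shControl level. That p does not show the level of MAX to be the same in both groups.

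**Figure D2:**
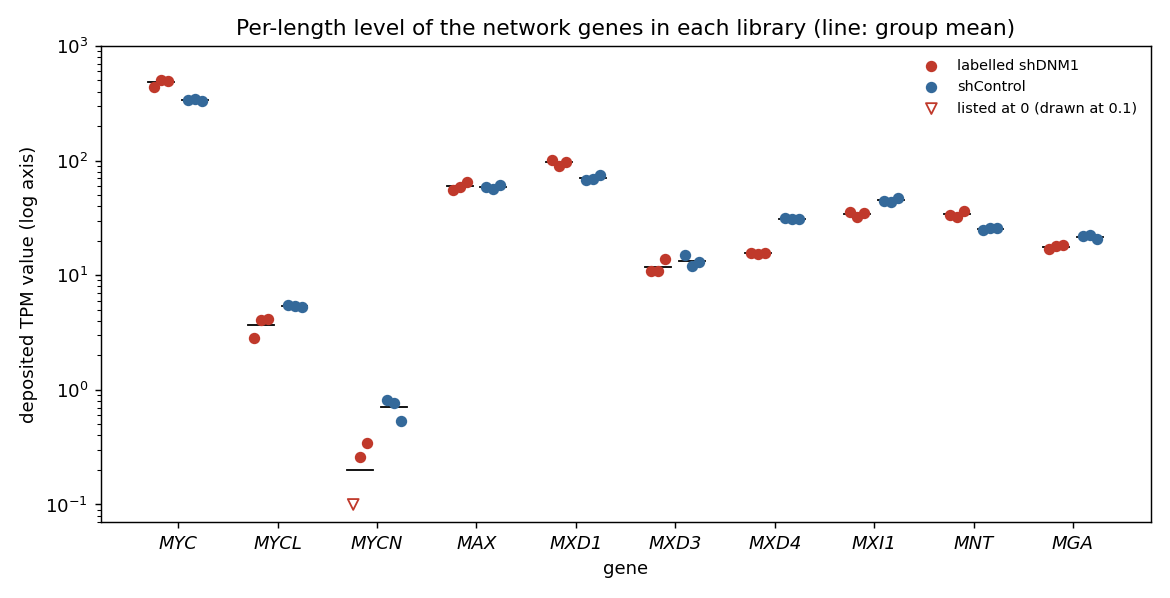
Deposited TPM value of each member in each library (log axis, points), with libraries labelled shDNM1 left of shControl and short lines at the group means. MYC stood at 438 to 509 TPM with the shDNM1 label and 332 to 346 TPM with the shControl label, and MYCN was below 1 TPM in all 6 libraries, listed at 0 in shDNM1 replicate 1 and drawn there as an open triangle near the lower edge.

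MXD1, the antagonist induced as cells leave the cycle and differentiate, lies on chromosome 2 from 69897688 to 69942945 on the plus strand. Its TPM value was 102, 90.5 and 96.8 in libraries labelled shDNM1 and 67.8, 69.4 and 75.2 in shControl libraries. The lowest library labelled shDNM1 was above the highest shControl library. The fold change was 1.41 (95% interval 1.29 to 1.55, edgeR adjusted p = 1.03e-05). Its start lies within the span of SNRNP27, a spliceosome gene on the same strand, which rose 1.65-fold (edgeR adjusted p = 0.000136) to 17.6 ± 0.19 CPM in libraries labelled shDNM1, against 10.7 ± 0.51 CPM in shControl libraries. How the authors' counting split reads between the overlapping genes is not given in the sources used here, so the MXD1 value carries that uncertainty.

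MXD3, the family member found mainly in S phase, lies on chromosome 5 from 177301461 to 177312757 on the minus strand. It had 106, 109 and 141 counts in libraries labelled shDNM1 and 145, 125 and 127 in shControl libraries, and the groups overlapped. Its log2 fold change was -0.12 (95% interval -0.44 to 0.20, edgeR adjusted p = 0.583). PRELID1, a mitochondrial lipid-transfer gene on the opposite strand within the span of MXD3, fell by 0.50 on the log2 scale (edgeR adjusted p = 0.000278), and without stated strand use in counting, reads of an antisense pair cannot be told apart.

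MXD4, an antagonist of resting and differentiated cells, lies on chromosome 4 from 2247432 to 2262109 on the minus strand and had the lowest fold change of the 9 tested members. Its TPM value was 15.6, 15.5 and 15.6 in libraries labelled shDNM1 and 31.5, 31.0 and 30.8 in shControl libraries. The groups were far apart relative to the spread within them, with SDs of 0.10 TPM for libraries labelled shDNM1 and 0.35 TPM for shControl libraries. The level in libraries labelled shDNM1 was 52.1% of that in shControl libraries (95% interval 46.2% to 58.8%, edgeR adjusted p = 1.24e-07), a log2 fold change of -0.94 (SE 0.08). Of all tested genes, 3.88% had a log2 fold change as low or lower.

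MXI1, also known as MXD2, lies on chromosome 10 from 110207605 to 110287365 on the plus strand. Its TPM value was 35.3, 31.9 and 35.1 in libraries labelled shDNM1 and 44.4, 43.5 and 47.0 in shControl libraries. No library labelled shDNM1 reached the lowest shControl library. The level was 78.8% of the shControl level, with a log2 fold change of -0.34 (SE 0.08, edgeR adjusted p = 0.00182).

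MNT, the antagonist present in proliferating as well as resting cells, lies on chromosome 17 from 2384073 to 2401104 on the minus strand. Its TPM value was 33.4, 31.9 and 36.6 in libraries labelled shDNM1 and 25.0, 26.0 and 25.7 in shControl libraries. Every library labelled shDNM1 exceeded every shControl library. The fold change was 1.38, or 0.47 on the log2 scale (SE 0.08, edgeR adjusted p = 0.00013).

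MGA, the scaffold of PRC1.6 and the only member with a T-box as well as a helix-loop-helix domain, lies on chromosome 15 from 41621134 to 41773081 on the plus strand. It had 1063, 1173 and 1181 counts in libraries labelled shDNM1 and 1363, 1467 and 1288 in shControl libraries, with no overlap. The level was 85.2% of the shControl level, with a log2 fold change of -0.23 (SE 0.07, edgeR adjusted p = 0.0157). The call was lost without shControl replicate 1 (edgeR adjusted p = 0.0638) and without shControl replicate 2 (0.0727).

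MXD4 and MNT, which moved in opposite directions, each have the E-box CACGTG upstream of the start. RefSeq (GRCh38.p14) windows of 300 bases around gene starts, 250 of them upstream, were found for 9 of the 10 members, and the motif was present for these 2 of the 9. It was found in 7.26% of all 35116 windows and for 12.2% of the tested genes that matched. The 60-base stretches below show the motif in capitals in both of them and in SRM, the spermidine synthase gene and a textbook MYC target that rose. Each reads 5′ to 3′ on the minus strand, where the gene lies, and CACGTG reads the same on the other strand.
MXD4: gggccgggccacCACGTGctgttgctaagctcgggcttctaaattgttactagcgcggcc
MNT: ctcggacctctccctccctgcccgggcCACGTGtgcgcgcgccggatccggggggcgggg
SRM: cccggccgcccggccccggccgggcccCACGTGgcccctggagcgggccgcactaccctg
The MXD4 stretch is chr4:2262300-2262359, with the first base of the motif 238 bases before the RefSeq start. The MNT stretch is chr17:2401221-2401280, with the motif 193 bases before the start. The SRM stretch is chr1:11060185-11060244, with the motif 199 bases before the start. MXD4 fell to 52.1% of its shControl level while MNT rose 1.38-fold and SRM rose 1.51-fold, so the same 6 letters stood before genes that moved either way. The match describes the sequence only, and no binding was measured. Over all tested genes with a window, the motif was present for 14.3% of those called higher, 11.7% of those called lower and 11.8% of those not called.

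The 5 antagonists MXD1, MXD3, MXD4, MXI1 and MNT overlapped between groups in their summed level, while the shares of all but MXD3 in that sum lay apart. Their summed TPM value was 197, 180 and 198 in libraries labelled shDNM1 and 184, 182 and 192 in shControl libraries, and the groups overlapped. MXD1 contributed 51.7%, 50.1% and 48.9% of that sum in libraries labelled shDNM1 and 36.9%, 38.1% and 39.2% in shControl libraries. MXD4 contributed 8.13% ± 0.37 with the shDNM1 label and 16.7% ± 0.59 with the shControl label (SD, n = 3 each). For MXD1 and for MXD4 the shares of the groups lay apart. MXI1 made up 17.8% ± 0.15 with the shDNM1 label and 24.2% ± 0.30 with the shControl label, and MNT made up 17.7% ± 0.75 with the shDNM1 label and 13.8% ± 0.45 with the shControl label. MXD3 made up 5.50%, 5.97% and 7.03% in libraries labelled shDNM1 and 8.20%, 6.68% and 6.82% in shControl libraries, and these shares overlapped.

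**Figure D3:**
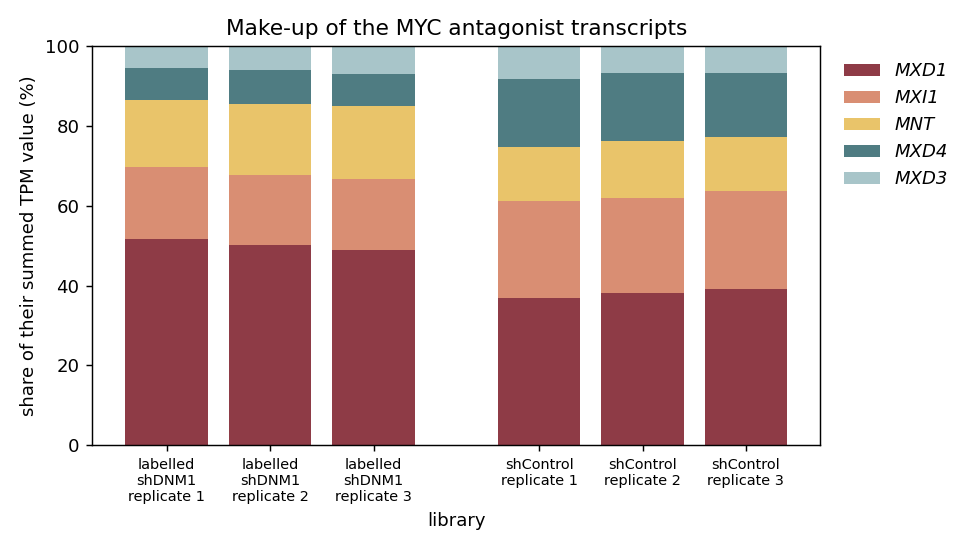
Share (percent) of each antagonist in the summed deposited TPM value of MXD1, MXD3, MXD4, MXI1 and MNT, one stacked bar a library, with libraries labelled shDNM1 on the left. MXD1 takes 48.9% to 51.7% of the sum with the shDNM1 label and 36.9% to 39.2% with the shControl label.

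The TPM value of MYC was 2.23, 2.82 and 2.52 times the sum of these 5 antagonists in libraries labelled shDNM1 and 1.84, 1.90 and 1.73 times in shControl libraries. The groups lay apart, with a mean log2 ratio of 1.33 ± 0.17 in libraries labelled shDNM1 and 0.87 ± 0.07 in shControl libraries (SD, n = 3 each). The difference of 0.46 had p = 0.1 in the exact two-sided permutation test. MAX, the partner that all members share, stood at 0.0854, 0.0820 and 0.0903 of the summed TPM value of its 9 partners in libraries labelled shDNM1 and at 0.108, 0.102 and 0.112 in shControl libraries. Every library labelled shDNM1 was below every shControl library, with a log2 difference of -0.32 and p = 0.1 in the exact two-sided permutation test. The partners summed to 695 ± 35.5 TPM in libraries labelled shDNM1 and 552 ± 3.58 TPM in shControl libraries, and most of both sums was MYC. These are transcript ratios, and protein was not measured.

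In order of mean TPM value, libraries labelled shDNM1 had MYC, MXD1, MAX, MXI1, MNT, MGA, MXD4, MXD3, MYCL and MYCN, and shControl libraries had MYC, MXD1, MAX, MXI1, MXD4, MNT, MGA, MXD3, MYCL and MYCN. MXD4 thus held place 7 with the shDNM1 label and place 5 with the shControl label. In libraries labelled shDNM1 the only neighbours in that order whose values overlapped were MXI1 and MNT, and in shControl libraries no neighbours overlapped.

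The network has a parallel arm in which MLX takes the place of MAX and pairs with the glucose-sensing factors MLXIP (MondoA) and MLXIPL (ChREBP). Of 5 listed genes, which are these factors and their targets TXNIP and ARRDC4, 3 were lower and 2 did not pass. Of all tested genes, 16.2% were lower. MLXIPL had 18.1, 16.4 and 18.9 CPM in libraries labelled shDNM1 and 30.7, 27.8 and 29.8 CPM in shControl libraries, with no overlap. Its log2 fold change was -0.73 (SE 0.10, edgeR adjusted p = 2.06e-05). ARRDC4, an arrestin-domain gene induced by these factors, had 12.8 ± 1.21 CPM in libraries labelled shDNM1 and 18.3 ± 1.76 CPM in shControl libraries (fold 0.701, edgeR adjusted p = 0.00391). MLXIP fell by 0.20 on the log2 scale (edgeR adjusted p = 0.0451), a call lost under 9 of 14 alternatives (adjusted p 0.0538 to 0.21 in those 9, and 0.0116 to 0.21 over all 14). Among the 9 were the fits without shDNM1 replicate 1 (0.0705) or 2 (0.146) and without shControl replicate 1 (0.21), 2 (0.0538) or 3 (0.0904). MLX itself and TXNIP, the best-known MondoA target, are named after their values were seen: both overlapped between groups, with edgeR adjusted p-values of 0.914 and 0.426.

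Of 16 coactivator genes, whose proteins MYC uses to activate transcription, 2 were higher and 14 not past the threshold, or 12.5% called beside 31.9% of all tested genes. KAT2A, the GCN5 histone acetyltransferase, had 79.9, 78.3 and 76.0 CPM in libraries labelled shDNM1 and 58.1, 56.5 and 58.4 CPM in shControl libraries. The groups lay apart, with a log2 fold change of 0.44 (SE 0.07, edgeR adjusted p = 7.36e-05). SKP2, an F-box protein that both coactivates MYC and ubiquitinates it, had 189 ± 9.82 CPM with the shDNM1 label and 159 ± 8.81 CPM with the shControl label (edgeR adjusted p = 0.00774, and 0.0541 without shControl replicate 2). Limma on log2(deposited TPM + 1) did not call SKP2 (adjusted p = 0.0628). The count of this list depended on the scaling and on 1 library. With library size alone, 2 were called higher and 5 lower, and without shDNM1 replicate 2 the count was 4.

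The corepressors that the MXD proteins recruit moved both ways: of 16 SIN3 and histone deacetylase genes, 4 were higher, 2 lower and 10 not past, or 37.5% called, near the 31.9% of all tested genes. SIN3B, a scaffold of the complex, had 95.7, 93.7 and 98.7 CPM in libraries labelled shDNM1 and 66.5, 68.1 and 71.2 CPM in shControl libraries. RBBP4, a histone-binding subunit of this and other chromatin complexes, had 146, 157 and 143 CPM in libraries labelled shDNM1 and 258, 263 and 266 CPM in shControl libraries. Neither gene overlapped between groups: SIN3B rose by 0.49 on the log2 scale (edgeR adjusted p = 1.89e-05) and RBBP4 fell by 0.82 (edgeR adjusted p = 1.76e-08). The small subunit SAP18 rose 1.18-fold (edgeR adjusted p = 0.0127), a call lost without shDNM1 replicate 2 (0.0561) and without shControl replicate 1 (0.0633). SAP30, which bridges SIN3 and the deacetylases, rose by 0.33 on the log2 scale at an edgeR adjusted p of 0.0454. The SAP30 call was lost without shDNM1 replicate 2 (0.0731) or 3 (0.127) or shControl replicate 1 (0.14) or 2 (0.235). It was also lost with DESeq2 (0.0589), limma on log2(deposited TPM + 1) (0.138) and edgeR with library size alone (0.0868). ARID4A, a SIN3-associated protein that binds RB, fell to 0.783 of the shControl level (edgeR adjusted p = 0.0425). The ARID4A call was lost without shDNM1 replicate 2 (0.169) or 3 (0.195) and without shControl replicate 1 (0.221) or 3 (0.113). It was also lost with DESeq2 (0.0546), limma on log2(deposited TPM + 1) (0.123) and edgeR with a filter of 1 CPM in 3 libraries (0.0564). Without shDNM1 replicate 2 or 3 the list had 3 called genes in all, and without shControl replicate 1 it had 2.

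Of 13 genes for PRC1.6, the complex that MGA assembles with MAX, 1 was higher, 3 were lower and 9 did not pass, or 30.8% called, near the 31.9% of all tested genes. TFDP2, a partner of E2F factors, had 51.5 ± 2.22 CPM in libraries labelled shDNM1 and 75.7 ± 6.58 CPM in shControl libraries (log2 fold change -0.56, SE 0.08, edgeR adjusted p = 2.70e-05). PCGF6, the Polycomb RING-finger subunit that defines the complex, had 45.0 ± 1.18 CPM in libraries labelled shDNM1 and 36.8 ± 1.19 CPM in shControl libraries (fold 1.22, edgeR adjusted p = 0.00731), and lost its call without shControl replicate 3 (0.0528). RING1, a ubiquitin ligase subunit, fell to 0.793 of the shControl level (edgeR adjusted p = 0.0347). It was not called without shDNM1 replicate 1 (0.117) or 3 (0.102) or shControl replicate 2 (0.119) or 3 (0.0919), nor by DESeq2 (0.0745). TFDP1, the paralogue of TFDP2, fell to 0.880 (edgeR adjusted p = 0.0403), and was not called without shDNM1 replicate 1 (0.0753) or 3 (0.148). Nor was it called without any 1 of the shControl libraries (0.132, 0.0883 and 0.0861 for replicates 1, 2 and 3). DESeq2 (0.0731) and edgeR with RLE scaling (0.0612) did not call it either. Without shDNM1 replicate 1 or 3, or shControl replicate 2, the list had 2 called genes, and without shControl replicate 3 it had 1.

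Of 20 listed germline genes that PRC1.6 silences in mouse embryonic stem cells, 5 passed the low-count filter and 0 were called by edgeR at the adjusted threshold, while 2 had an unadjusted p under 0.05. DESeq2 and limma-voom also called 0, limma on log2(deposited TPM + 1) called 1, and edgeR without shDNM1 replicate 1 called 1. Those 5 are named after their values were seen. SMC1B, a meiotic cohesin subunit, had 13, 9 and 16 counts in libraries labelled shDNM1 and 19, 24 and 24 in shControl libraries (edgeR adjusted p = 0.0982). SYCE2, of the synaptonemal complex, had 21, 11 and 18 counts in libraries labelled shDNM1 and 33, 26 and 30 in shControl libraries (edgeR adjusted p = 0.0686). In both, the libraries labelled shDNM1 were the lower ones and did not overlap with shControl. TDRKH, a Tudor-domain protein of the piRNA pathway, had the highest counts of the list, with 217, 217 and 269 in libraries labelled shDNM1 and 224, 237 and 227 in shControl libraries. STAG3, another meiotic cohesin subunit, had 62, 52 and 61 counts in libraries labelled shDNM1 and 77, 59 and 56 in shControl libraries. STAG3, TDRKH and SYCP3 overlapped between groups, with edgeR adjusted p-values of 0.753, 0.695 and 0.370.

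Of 19 genes that regulate the stability of the MYC protein, 5 were higher, 2 were lower and 12 did not pass, or 36.8% called, near the 31.9% of all tested genes. SET, an inhibitor of the phosphatase PP2A that removes the stabilising phosphate from MYC, had 770, 871 and 830 CPM in libraries labelled shDNM1 and 588, 598 and 594 CPM in shControl libraries. The groups lay well apart, with a fold of 1.39 (edgeR adjusted p = 1.10e-05). USP36, a nucleolar deubiquitinase of MYC, rose 1.34-fold (edgeR adjusted p = 0.00034), and PLK1, a mitotic kinase that stabilises MYC proteins, rose 1.27-fold (edgeR adjusted p = 0.00252). The remaining higher genes were SKP2 and FBXW7, the latter named after its value was seen. They rose 1.19-fold and 1.21-fold (edgeR adjusted p = 0.00774 and 0.0441). SKP2 ubiquitinates MYC, so the higher genes were not all stabilisers of MYC. USP28, another MYC deubiquitinase, fell to 0.864 of the shControl level (edgeR adjusted p = 0.0172), and lost its call without shControl replicate 1 (0.0802), 2 (0.0523) or 3 (0.054). HUWE1, a ubiquitin ligase that acts on MYC, fell to 0.886 (edgeR adjusted p = 0.0371). It lost its call without shDNM1 replicate 1 (0.0603) or 3 (0.0979) or shControl replicate 1 (0.136), 2 (0.0627) or 3 (0.0847). With RLE scaling it also lost its call (edgeR adjusted p = 0.0609). Without shControl replicate 2 the list had 3 called genes and without shControl replicate 3 it had 4.

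Of 13 genes that act on MYC transcription or on its mRNA, 1 was higher, 2 were lower and 10 did not pass, or 23.1% called beside 31.9% of all tested genes. CTCF, the insulator protein that binds upstream of MYC, had 105, 121 and 114 CPM in libraries labelled shDNM1 and 143, 137 and 139 CPM in shControl libraries, with no overlap and a log2 fold change of -0.30 (SE 0.07, edgeR adjusted p = 0.00167). FUBP1, which binds a single-stranded element upstream of MYC, fell to 0.835 of the shControl level (edgeR adjusted p = 0.00708, and 0.0565 without shDNM1 replicate 3). IGF2BP1, which binds and stabilises MYC mRNA, rose 1.17-fold (edgeR adjusted p = 0.0102, and 0.0665 without shControl replicate 3). Without shDNM1 replicate 2 the list had 5 called genes.

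MYC-induced textbook targets were more often higher than lower: of 41, 15 rose, 3 fell and 23 did not pass, or 36.6% higher and 7.32% lower beside 15.6% and 16.2% of all tested genes. Their median log2 fold change was 0.14, beside -0.01 over all tested genes, and the list was drawn up with results of these data known. SRM had 76.0, 90.0 and 83.2 CPM in libraries labelled shDNM1 and 57.9, 53.5 and 53.7 CPM in shControl libraries. The groups lay apart, with shDNM1 replicate 2 the highest. The log2 fold change of SRM was 0.60 (SE 0.08, edgeR adjusted p = 1.05e-05). BYSL, a factor of small ribosomal subunit assembly, rose by 0.49 on the log2 scale (edgeR adjusted p = 0.000937).

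Among the 3 MYC-induced targets that fell, SHMT1, a cytosolic enzyme of one-carbon metabolism, had 25.2, 28.5 and 27.1 CPM in libraries labelled shDNM1 and 49.1, 51.3 and 46.6 CPM in shControl libraries. All libraries labelled shDNM1 were below all shControl libraries, with a log2 fold change of -0.86 (SE 0.08, edgeR adjusted p = 4.20e-07). CCND2, the cyclin D2 gene, had 5.33 ± 0.77 CPM with the shDNM1 label and 8.66 ± 0.71 CPM with the shControl label (edgeR adjusted p = 0.00375). PAICS, a purine synthesis enzyme, had 588 ± 18.1 CPM with the shDNM1 label and 689 ± 1.52 CPM with the shControl label (edgeR adjusted p = 0.00482). The E-box was present in the promoter windows of 22 of 35 matched targets: 7 of 13 that rose, 1 of 2 that fell and 14 of 20 not past.

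**Figure D4:**
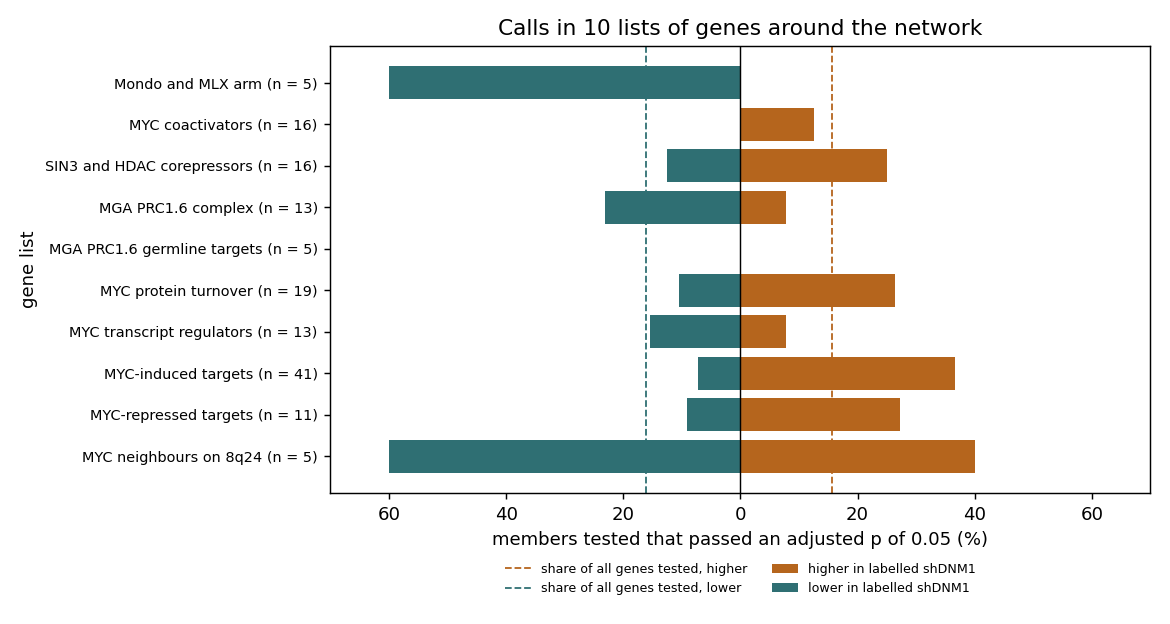
Share (percent of tested genes) called higher and called lower in libraries labelled shDNM1 in each of 10 gene lists around the network, with edgeR's quasi-likelihood test at an adjusted p of 0.05. The dashed lines mark the shares over all tested genes, 15.6% higher and 16.2% lower, and the MYC-induced list stands at 36.6% higher and 7.32% lower.

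Of 13 textbook targets that MYC represses, 11 were tested, of which 3 rose, 1 fell and 7 did not pass, with a median log2 fold change of 0.17 beside -0.01 over all tested genes. The 36.4% called was near the 31.9% of all tested genes, with 27.3% higher beside 15.6%. GADD45A, a growth arrest and DNA damage gene, had 274, 289 and 292 CPM in libraries labelled shDNM1 and 169, 176 and 190 CPM in shControl libraries. FTH1, the ferritin heavy chain, had 682, 1216 and 849 CPM in libraries labelled shDNM1 and 341, 409 and 493 CPM in shControl libraries. Both lay apart between groups, and FTH1 was the more uneven within groups. GADD45A rose by 0.68 on the log2 scale (SE 0.06, edgeR adjusted p = 2.65e-07) and FTH1 rose 2.21-fold (95% interval 1.78 to 2.75, edgeR adjusted p = 1.30e-05). DDIT3, the stress-induced factor CHOP, rose by 0.68 on the log2 scale (SE 0.14, edgeR adjusted p = 0.0013). CDKN1B, the cyclin-dependent kinase inhibitor p27, had 55.0 ± 0.90 CPM with the shDNM1 label and 70.9 ± 2.70 CPM with the shControl label, a log2 fold change of -0.37 (edgeR adjusted p = 0.000545).

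Around the MYC locus, 12 of 15 listed neighbours had a line in the table and 5 passed the low-count filter, of which 2 were higher and 3 lower, where 31.9% of all tested genes were called. PVT1, the long noncoding RNA gene that starts 51.6 kb after MYC, had 25.4, 21.8 and 24.9 CPM in libraries labelled shDNM1 and 14.9, 17.7 and 17.2 CPM in shControl libraries. The groups lay apart, with a fold of 1.45 (edgeR adjusted p = 0.00116) beside 1.48 for MYC. TRIB1, a pseudokinase gene 2297 kb before MYC, rose 1.23-fold (edgeR adjusted p = 0.00285). LRATD2, 1177 kb before MYC, had 16.7 ± 2.03 CPM with the shDNM1 label and 25.9 ± 1.12 CPM with the shControl label, a log2 fold change of -0.63 (edgeR adjusted p = 0.000222). CYRIB, an inhibitor of RAC1 2097 kb after MYC, fell to 0.845 of the shControl level (edgeR adjusted p = 0.00939). ASAP1, an ARF GTPase-activating protein 2309 kb after MYC, fell to 0.804 (edgeR adjusted p = 0.0132). CYRIB and ASAP1 lost their calls without shControl replicate 1 (0.0506 and 0.0821) and without shControl replicate 3 (0.054 and 0.0668), and the count was then 3.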

How the data were processed

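Libraries made with a SMARTer mRNA kit, per the labels, from 3 SW620 samples labelled shDNM1 and 3 labelled shControl were measured by RNA-seq. The authors deposited a table of raw read counts per gene symbol and a table of TPM values, which is a per-length score here because 453 gene names are repeated (with identical values) and its columns exceed the fixed TPM total until repeats are dropped. The submitters' processing notes name the build GRCh38. For alignment, counting, annotation release and strand use, the tools were not given in the sources used here. The first line of each repeated name was kept.

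Counts were filtered with filterByExpr (minimum count 10), scaled by TMM and tested with edgeR 4.0.16 (R 4.3.3): a two-sided quasi-likelihood F test of shDNM1 over shControl, with Benjamini-Hochberg adjustment over 16744 genes, a threshold of 0.05 and no covariate. CPM values are TMM-scaled. The test was first tried on simulated data with known fold changes. It recovered 22% of 1.25-fold, 68% of 1.5-fold, 84% of 2-fold and 98% of 4-fold changes, so small changes can be missed. The simulation changed few of its 16422 genes and gave all genes the same dispersion, whereas 31.9% of tested genes were called in the data. These rates may therefore not hold for the data. DESeq2 1.42.0, limma 3.58.1 (voom, and log2(TPM + 1)), other scalings and filters, a replicate block and each library left out were alternatives. Ratios between genes used deposited TPM values and exact two-sided permutation tests. Gene positions are those the authors deposited with the read counts, and promoter windows are from RefSeq. Deviations of same-numbered libraries from their group means correlated at 0.143, 0.100 and -0.05, and those of unlike numbers at -0.145 to 0.053. These values do not settle whether the numbers pair the libraries.

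The members and lists were chosen with earlier results of these data known. Named are all members, DNM1 and, in each list, up to 3 called genes a direction with the largest change at a mean of at least 1 CPM. Some genes, SKP2 among them, stand in 2 lists. A gene that the naming rule picks among the MYC-induced targets is not reported here. CCAT1, CASC21 and TMEM75 were not matched by symbol. Counts were 12844534 to 13537519 a library.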

Additional observations from a re-analysis of the deposited data

How the results depend on the processing

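Over 14 alternatives the calls of MYC (log2 fold change 0.50 to 0.65), MXD1 (0.44 to 0.54), MNT (0.39 to 0.50), MXD4 (-0.98 to -0.92) and MXI1 (-0.39 to -0.32) were kept, and the change of MAX, never past the threshold, ranged over 0.01 to 0.13. MGA (-0.28 to -0.18) lost its call in 2 alternatives and MYCL gained one in 3. No sign changed for the 9 tested members or the 37 other calls that the naming rule picks; DESeq2 ended 5 of those calls and leaving out a library 4 to 10. Whether the replicate numbers pair the libraries was not settled. A fit with the replicate number as a block gave 8 called coactivators and 6 MYC transcript regulators, against 2 and 3 without it. Coactivators were 7 with library size alone and 5 with limma on log2(TPM + 1). SIN3 and deacetylase genes were 3 with DESeq2 and 3 with limma on TPM, PRC1.6 genes 2 with DESeq2, and germline genes 1 with limma on TPM. MYC transcript regulators were 5 with RLE scaling and 5 with a filter of 1 CPM in 3 libraries. With each library left out, called genes ranged over 2 to 4 for coactivators, 2 to 6 for SIN3 and deacetylases, 1 to 4 for PRC1.6, 0 to 1 for germline genes, 3 to 7 for MYC turnover, 2 to 5 for transcript regulators and 3 to 5 for MYC neighbours, and the DNM1 change over -0.20 to -0.037. The cause was not tested. MYCN, with 7 counts in libraries labelled shDNM1 and 24 in shControl libraries, is limited by depth; DNM1 was hardly lower, batch and group cannot be told apart, and 3 libraries a group limit the exact tests to p = 0.1.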
